A study of Mus musculus with 6 samples.

Results

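Guidance receptors and their ligands steer growing axons, and those examined here are the Eph receptors with the ephrins, the Robo receptors with the Slits, and the netrin receptors with the netrins. They were chosen by gene symbol: Epha, Ephb, Efna, Efnb and Unc5 genes, numbered Robo, Slit and Ntn genes, and Dcc and Neo1. The endothelial gene Robo4, the Slitrk genes and Unc50, an unrelated gene, were left out. The array held 98 probes for 39 such genes, of 34186 probes and 18295 genes with a symbol. Their expression was compared between neurons of Pitx3(gfp/-) mouse embryos, called null here, and of Pitx3(gfp/+) embryos, called heterozygous here. Pitx3 encodes a homeodomain protein that midbrain dopaminergic neurons need. In both genotypes 1 Pitx3 allele carries the gene for green fluorescent protein (GFP), by which the cells were sorted at E14.5, and the labels name the other allele of the null embryos AK. The control cells therefore also lacked 1 intact copy of Pitx3.

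The study used 3 heterozygous pools, each of several embryos, and 1 null pool. Each heterozygous pool was set against that same null pool on 2 two-colour arrays with the dyes exchanged, which gave 6 arrays. The log2 ratios below read null over heterozygous, so a negative value means a lower level in the null pool. The ratio of a pool is the mean of its 2 arrays, and each mean ± SD is over 3 pools. Since every ratio shares the null pool, the SD and the p-values measure how the heterozygous pools vary and not how null pools would. The RNA is from sorted populations, so fewer cells of a type and less RNA per cell cannot be told apart.

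An Eph receptor is a receptor tyrosine kinase of the cell surface that binds ephrins on a neighbouring cell. Ephrin-A ligands are held by a lipid anchor and ephrin-B ligands cross the membrane, and binding usually makes the growth cone turn away. Slits are secreted repellents read by Robo receptors, with which commissural axons are kept from crossing the midline again. Netrins are secreted cues that attract axons through DCC and repel them through the Unc5 receptors. In the midbrain these systems are known to help set the course of dopaminergic axons towards the forebrain.

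Pitx3 itself was well above background in both RNAs, with log2 ratios of -0.45, 0.12 and 0.075 in pools 1 to 3. The files do not show where its probe lies relative to the altered sequence of either allele, so its level does not check the labels. Across 12291 genes above background, both dye orientations of the same pool had turned ratios with r from 0.63 to 0.74. Between arrays of different pools, which share the null pool, r was 0.54 to 0.65 with the same dyes and 0.39 to 0.51 with the dyes exchanged.

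Of the 39 guidance genes, 31 were above background, meaning that the brightest probe exceeded the local background by more than 2 background SDs on at least 3 of 6 arrays in either RNA. The other 8 were Epha6, Ephb6, Efna1, Efna3, Ntn3, Ntn4, Ntn5 and Unc5cl, and no ratio is given for them. Unc5cl resembles the inner part of an Unc5 receptor only. On single arrays, 25 to 32 guidance genes were well above background in the null RNA and 22 to 34 in the heterozygous RNA. The scanner signals were low: over the guidance genes the median was 71.5 in the null RNA and 71.1 in the heterozygous RNA, and over all genes it was 64.3 in the null RNA and 63.2 in the heterozygous RNA.

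Epha7 fell in the null pool and was the 1 guidance gene that passed the test over all genes. In limma with Benjamini-Hochberg adjustment, 0 guidance genes rose, 1 fell and 38 did not pass, a share of 2.56%. Over all genes 4.96% passed, 3.09% as higher and 1.87% as lower in the null pool, so the share among guidance genes was not above the background. At an unadjusted p under 0.05 there were 11 guidance genes (28.2%), 4 higher and 7 lower, against 20.5% of all genes, 10.8% higher and 9.66% lower. Guidance genes were also more often above background than all genes, at 79.5% and 67.2%. The median log2 ratio was -0.0092 over the 39 guidance genes and -0.0027 over all genes. The largest difference among guidance genes was 1.26-fold, and over all genes it was 2.54-fold.

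**Figure D1:**
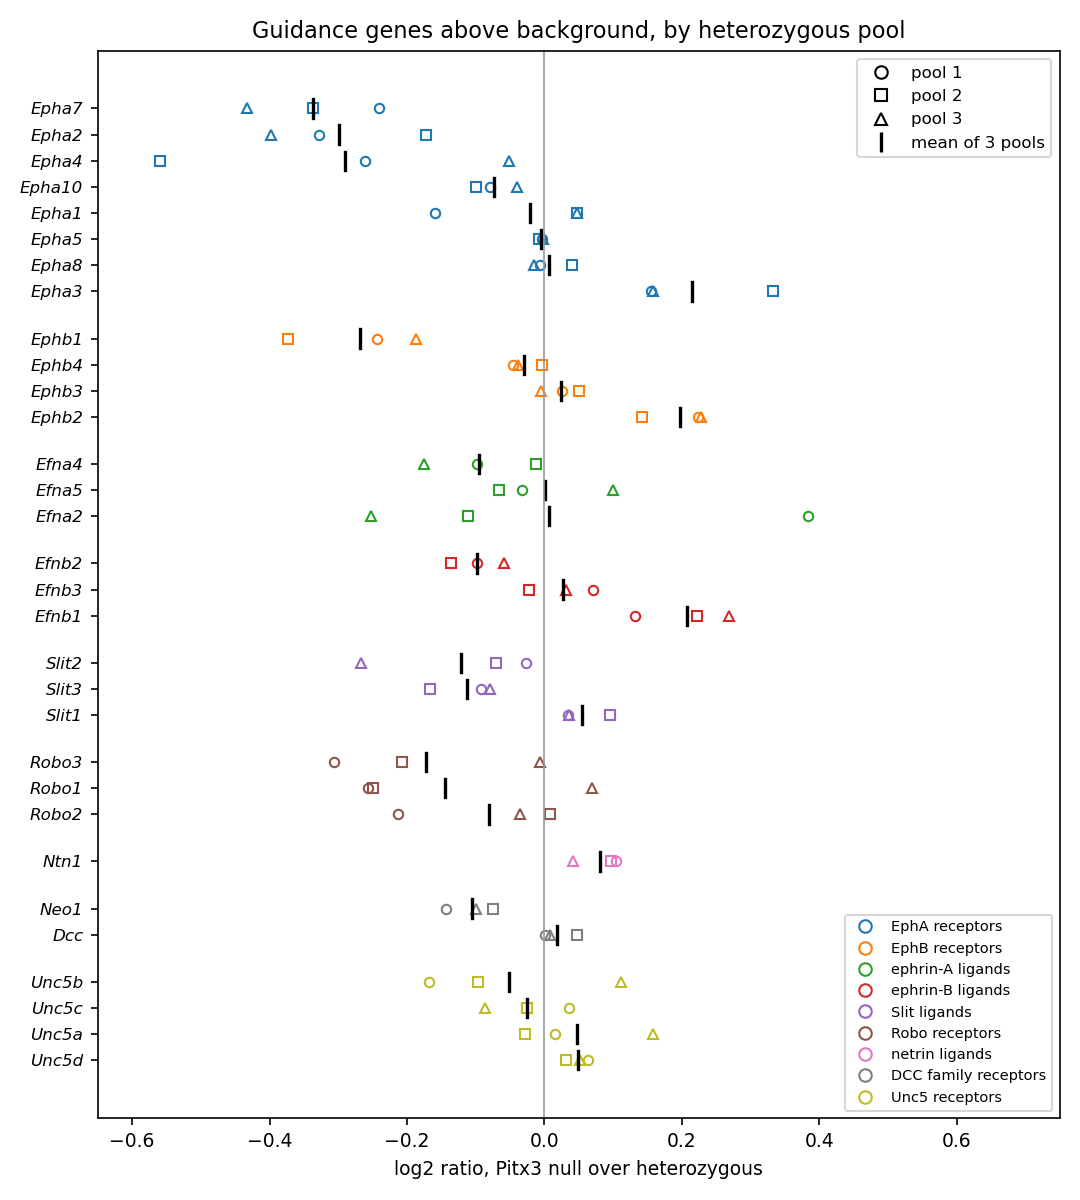
Log2 ratio of null over heterozygous RNA (x axis) for the 31 guidance genes above background (rows, grouped by family), with 1 symbol per heterozygous pool and a bar at the mean of the 3 pools. Epha7, Epha2, Ephb1, Ephb2 and Efnb1 have all 3 pools on the same side of 0, while the pools of Efna2 spread from -0.25 to 0.38.

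The EphA receptors held the lowest and the highest mean ratios of all guidance genes. Of the 9 EphA genes, 8 were above background, with 2 ratios above 0, 6 below 0 and 1 call. Epha7 encodes a receptor known for sorting axons and for a short form that can act as an adhesion molecule. Its log2 ratio was -0.24 in pool 1, -0.34 in pool 2 and -0.43 in pool 3, with a mean of -0.34 ± 0.096 (SD, n = 3 pools; limma adjusted p = 0.0435). This is a level 1.26-fold lower in the null pool, and the 6 arrays all read below 0, from -0.47 to -0.18. The scanner signal of the probe averaged 74.5 over a background of 42.5 in the null RNA and 95.1 over 42.2 in the heterozygous RNA. All 3 pools lay below 0, and the gene was dim in both RNAs.

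The fall of Epha7 stood near the threshold. Leaving out any pool ended it (adjusted p = 0.0841 without pool 1, 0.152 without pool 2 and 0.133 without pool 3), where limma called 0 of all genes. Read by dye, Epha7 stood at -0.41 where Cy5 marked the null RNA (adjusted p = 0.0269) and at -0.26 where Cy3 did (adjusted p = 0.0912). It did not pass with local background subtraction (adjusted p = 0.125), median centring (0.169), a trended robust variance (0.138) or the mean over its probes (0.0682). Its 3 further probes stayed under the background limit on all 6 arrays in both RNAs, so the result rests on a single probe.

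Promoter sequence is shown for Epha7, as the gene that passed, and for Robo3, as the guidance gene whose window holds a match to the binding motif of Pitx factors, TAATCC. The sequences are the 250 bases before a RefSeq gene start in GRCm38.p6, the motif was searched on both strands, and a match is in capitals.
Epha7, chr4:28812881-28813130, plus strand: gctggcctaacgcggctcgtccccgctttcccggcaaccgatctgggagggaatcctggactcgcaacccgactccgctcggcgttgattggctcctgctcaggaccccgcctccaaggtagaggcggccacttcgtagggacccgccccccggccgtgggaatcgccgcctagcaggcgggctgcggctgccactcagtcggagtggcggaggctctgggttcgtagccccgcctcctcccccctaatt
Robo3, chr9:37433176-37433425, minus strand: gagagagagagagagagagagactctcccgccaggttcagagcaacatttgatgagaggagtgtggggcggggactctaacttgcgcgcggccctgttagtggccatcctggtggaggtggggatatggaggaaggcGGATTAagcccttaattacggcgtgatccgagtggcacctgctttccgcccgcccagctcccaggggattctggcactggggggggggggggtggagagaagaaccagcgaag
The capitals in Robo3 read as TAATCC on the opposite strand and begin 113 bases before the start. Windows matched 34 of the 39 guidance genes, 39 windows in all, and 1 of them (2.56%) held the motif, against 6.25% of 32851 windows of all genes. Epha7 has no match in this window, which says nothing of sites elsewhere.

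Cell type markers were read on the same arrays beside these receptors. Of 11 markers of midbrain dopaminergic neurons, 9 were above background, while Th, the rate-limiting enzyme of dopamine synthesis, and En1 stayed under that limit on all 6 arrays. Their summed normalized signal was 716 to 878 in the null RNA and 797 to 1108 in the heterozygous RNA over the 3 pools. The dopamine transporter gene Slc6a3 was the 1 call in that list, at -0.42 ± 0.018 (limma adjusted p = 0.0260). These short lists, chosen with earlier results known, are read against 1.87% of all genes called lower and 3.09% called higher.

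These dopaminergic ranges overlapped, which does not show whether the null sum was lower within each pool. Foxa2 (-0.27 ± 0.099; limma adjusted p = 0.0633) and Nr4a2 (-0.31 ± 0.25; adjusted p = 0.224) lay below 0 in all 3 pools without passing. Aldh1a1 and Drd2 did so too, while Ddc and Slc18a2 averaged above 0 and Lmx1b and Pitx3 had pools on both sides. The summed markers of GABAergic neurons and of endothelium were lower in the null RNA in all 3 pools. All 6 GABAergic markers were above background and 2 of them fell, Gata3 and Tal1, with a summed signal of 637 to 662 in the null RNA and 773 to 885 in the heterozygous RNA. Of 9 endothelial markers, 8 were above background and 2 fell, Cd34 and Sox17, with sums of 910.0 to 930.0 in the null RNA and 1057 to 1388 in the heterozygous RNA. Cdh5 lay below 0 in all 3 pools without passing. Cldn5 lay above 0 in all 3 pools (mean 0.035 ± 0.025), and Tek and Emcn had pools on both sides. Kdr and Flt1 averaged -0.28 ± 0.42 and -0.26 ± 0.41 and were lowest in pool 2. Pecam1 stayed under the limit on all 6 arrays. Radial glia and floor plate markers, 6 of 9 above background and 0 called in limma, summed to 4948 to 5150 in the null RNA and 3875 to 4718 in the heterozygous RNA. Hes5 (0.40 ± 0.20) and Fabp7 (0.38 ± 0.21) had the largest means of that list, and Sox2 and Vim also averaged above 0. Slc1a3 averaged -0.23 ± 0.33 and Nes had pools on both sides of 0, so the members did not all go the same way. The sums of other lists were also higher in the null RNA in all 3 pools. Of 3 measured markers of glutamatergic neurons and the red nucleus, Pou4f1 rose by 0.44 ± 0.064 (limma adjusted p = 0.0262). Slc17a6 went the other way, at -0.099, -0.30 and -0.12 in pools 1 to 3 (mean -0.17 ± 0.11; adjusted p = 0.168). Tbr1 stayed under the limit on all 6 arrays. The list summed to 193 to 206 in the null RNA and 164 to 189 in the heterozygous RNA, so this sum does not show a common direction. Of 4 erythroid markers, Hbb-y, a globin gene of embryonic red cells, rose by 0.37 ± 0.060 (adjusted p = 0.0287), with sums of 403 to 464 in the null RNA and 315 to 388 in the heterozygous RNA. The mesenchyme, serotonergic and microglia lists had 0 calls in limma, also at an unadjusted p under 0.05, and overlapping sums. The part of these cell types in the guidance gene ratios was not tested.

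Epha2, which is active in epithelia and blood vessels as well as in the nervous system, had ratios of -0.33, -0.17 and -0.40 in pools 1 to 3. Its mean of -0.30 ± 0.12 did not pass (limma adjusted p = 0.0660), although all 6 arrays read below 0. Epha4, a repulsive receptor of motor and cortical axons, had the widest spread of the low EphA genes, at -0.26, -0.56 and -0.051 (mean -0.29 ± 0.26; adjusted p = 0.251). The 3 pools of Epha4 differed by more than its distance from 0. Epha10, which lacks an active kinase, was dim and read -0.079, -0.10 and -0.039 (adjusted p = 0.224).

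Epha3, a receptor that prefers ephrin-A5, went the other way. Its pools read 0.16, 0.33 and 0.16, with a mean of 0.22 ± 0.10 that did not pass (limma adjusted p = 0.0975). The scanner signal was 93.8 in the null RNA and 76.8 in the heterozygous RNA. All 3 pools lay above 0, and 5 of 6 arrays did. Epha5, a receptor for ephrin-A ligands that is known from dopaminergic and cortical axons, had ratios between -0.0077 and -0.0023 in the 3 pools, the narrowest range of any guidance gene above background. Its 95% interval ran from -0.064 to 0.055. Epha1 and Epha8 averaged -0.022 ± 0.12 and 0.0061 ± 0.029.

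The EphB receptors, which bind ephrin-B ligands, also pointed both ways, with 0 calls among 5 genes in limma and 4 of them above background. Ephb1, known for guiding retinal axons to the same side of the brain, read -0.24, -0.37 and -0.19 in pools 1 to 3. Its mean of -0.27 ± 0.095 missed the threshold (limma adjusted p = 0.0608). Ephb2, which acts in commissural axons and at excitatory synapses, read 0.22, 0.14 and 0.23. The mean was 0.20 ± 0.049 and lay just outside the threshold (adjusted p = 0.0505). Both genes kept their sign on all 6 arrays, Ephb1 below 0 and Ephb2 above 0.

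The size of the Ephb2 ratio depended on the dyes. It averaged 0.31 where Cy5 marked the null RNA and 0.084 where Cy3 did. For Ephb1 these means were -0.33 and -0.20. Ephb4, the receptor that marks venous endothelium, averaged -0.029 ± 0.022, and Ephb3 0.024 ± 0.027.

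**Figure D2:**
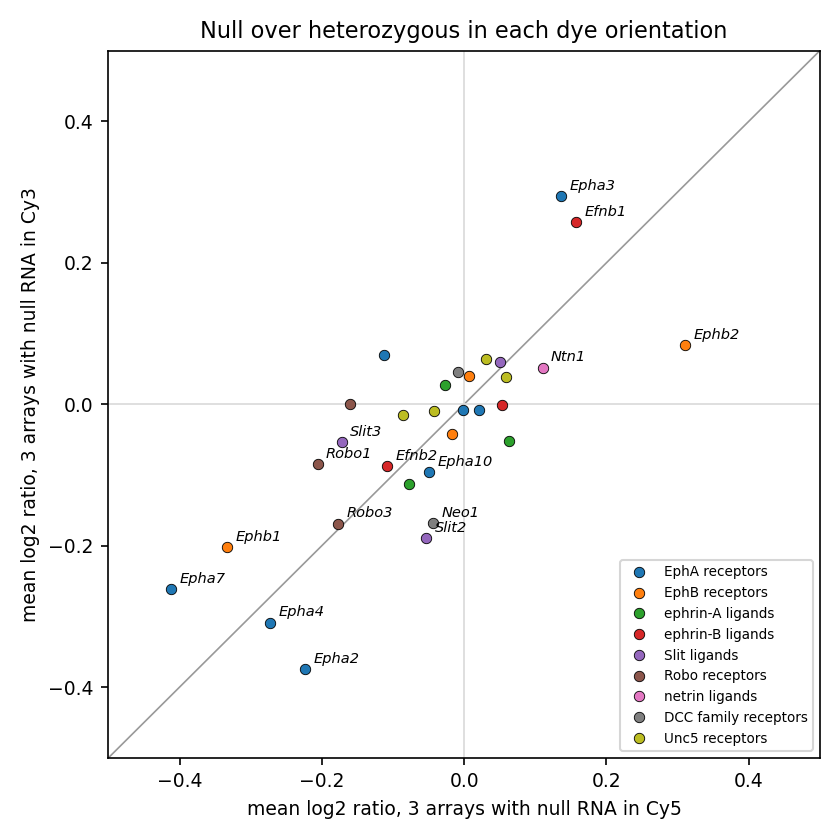
Mean log2 ratio of null over heterozygous RNA over the 3 arrays where Cy5 marked the null RNA (x axis) and the 3 where Cy3 did (y axis), for the 31 guidance genes above background, coloured by family, with the line of equal values. Epha7, Epha2, Epha4 and Ephb1 lie in the lower left and Epha3, Efnb1 and Ephb2 in the upper right, while Ephb2 lies far from the line (0.31 and 0.084).

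The 2 dye orientations gave the same sign for 30 of 39 guidance genes, or 76.9%, and for 65.3% of all genes. The sign was shared by all 6 arrays in 10 of 39 guidance genes (25.6%), against 20.2% of all genes. The arrays share the null pool and each pair shares a heterozygous pool, so these are not independent readings.

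None of the 8 ephrin genes passed in limma, and 6 were above background. Of those 6, all but Efnb1 had means between -0.098 and 0.027. Efnb1, an X-linked ephrin that crosses the membrane and can signal back into its own cell, read 0.13, 0.22 and 0.27 in pools 1 to 3. Its mean was 0.21 ± 0.070 (adjusted p = 0.0649), from a signal of 116 in the null RNA and 97.0 in the heterozygous RNA. All 6 arrays of Efnb1 were above 0.

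Efnb2, the ephrin of arterial endothelium and of many axon targets, read -0.098, -0.14 and -0.059 (mean -0.098 ± 0.039; limma adjusted p = 0.150). It was dim, with a signal of 58.4 over a background of 43.9 in the null RNA and 61.7 over 42.6 in the heterozygous RNA. Efnb3, a midline ephrin that stops corticospinal axons, averaged 0.027 ± 0.047. Neither gene passed the adjusted threshold. The unadjusted limma p was 0.0213 for Efnb2, which lay below 0 on all 6 arrays, and 0.407 for Efnb3.

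Among the ephrin-A ligands, Efna5 was the brightest. Efna5, a repellent for axons that carry EphA receptors, had a signal of 198 in the null RNA and 191 in the heterozygous RNA and averaged 0.00035 ± 0.088, with pools at -0.032, -0.066 and 0.099. Its swapped arrays differed by 0.25 on average, so small differences could not be read. Efna2, an ephrin-A expressed in the visual targets of the midbrain, had the widest spread over pools of the guidance genes above background, at 0.38, -0.11 and -0.25. The pool ratios thus differed in Efna2 more than in any other of these genes, and no common direction was seen. Its swapped arrays differed by 0.21 on average, with opposite signs in pool 2 (0.071 and -0.29). This spread therefore also holds differences between arrays. Efna4 averaged -0.095 ± 0.081 (adjusted p = 0.301).

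All 3 Robo genes and 2 of 3 Slit genes had means below 0, and none of these 6 genes passed in limma. Their median was -0.12, with pool medians of -0.15, -0.12 and -0.021, so pool 3 was the closest to 0. Robo3, the receptor that lets commissural axons cross the midline, read -0.31, -0.21 and -0.0065 (mean -0.17 ± 0.15; adjusted p = 0.267). A second, dimmer Robo3 probe, past the background limit on 3 arrays in each RNA, averaged -0.026 ± 0.019. Robo1, the main Slit receptor of many forebrain and midbrain axons, read -0.26, -0.25 and 0.070 (mean -0.15 ± 0.19; adjusted p = 0.425). By the brightest probes, pools 1 and 2 were low for both receptors and pool 3 was near 0 or above it. A second Robo1 probe, almost as bright, was lowest in pool 3, at -0.26. Robo2, which acts beside Robo1, was dimmer and averaged -0.080 ± 0.12.

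The secreted Slits were measured in the sorted cells themselves. Slit2, expressed by midline cells and by some neurons, read -0.027, -0.070 and -0.27, with a mean of -0.12 ± 0.13 (limma adjusted p = 0.354). Pool 3 gave most of this value, and without it the mean was -0.048. A second Slit2 probe, above the background limit on all 6 arrays in both RNAs, averaged -0.0099 ± 0.068. Its pools read -0.072, -0.021 and 0.063. Slit3 read -0.093, -0.17 and -0.079, with a mean of -0.11 ± 0.048 (adjusted p = 0.134). It was below 0 on all 6 arrays, though dim, with a signal of 62.2 in the null RNA and 66.5 in the heterozygous RNA. Slit1, a Slit that is restricted to the nervous system, averaged 0.055 ± 0.035 (adjusted p = 0.354).

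Of the netrins, Ntn1 alone was above background, and none of the 4 passed in limma. Ntn1, the classical floor plate attractant, read 0.10, 0.097 and 0.042 in pools 1 to 3 (mean 0.081 ± 0.034; adjusted p = 0.197). All 6 arrays were above 0, but the signal of 59.4 in the null RNA and 54.9 in the heterozygous RNA stood on backgrounds of 41.2 and 40.4. Dcc, the attractive netrin receptor, averaged 0.019 ± 0.025 with a 95% interval from -0.047 to 0.085. It passed the background limit on 3 of 6 arrays in the null RNA and on 5 of 6 in the heterozygous RNA.

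Neo1, a relative of DCC that also binds RGM proteins, was among the brighter guidance genes. It read -0.14, -0.075 and -0.10 in pools 1 to 3, with a mean of -0.11 ± 0.034 that did not pass (limma adjusted p = 0.119). All 6 arrays were below 0. The 4 Unc5 receptors, which turn a netrin signal into repulsion, had means from -0.051 (Unc5b) to 0.049 (Unc5d), and the pools of Unc5a, Unc5b and Unc5c lay on both sides of 0. A second Unc5c probe above background read 0.12, 0.052 and 0.060. Its mean was 0.077 ± 0.037 (limma adjusted p over all probes = 0.233), against -0.026 for the brightest Unc5c probe.

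**Figure D3:**
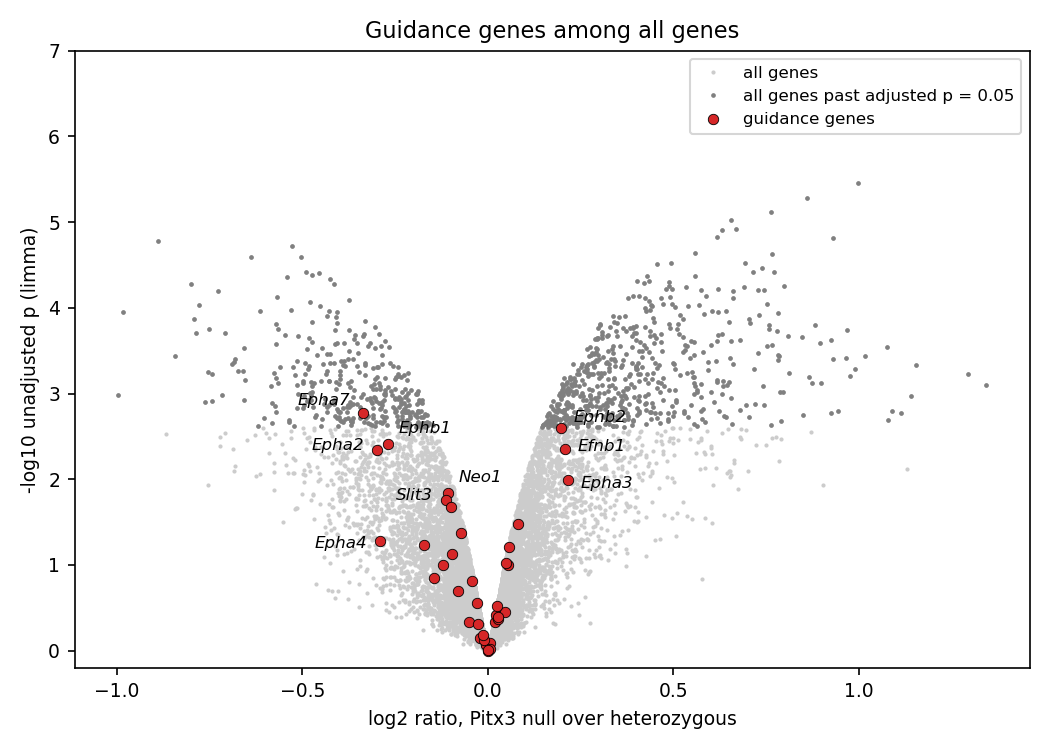
Log2 ratio of null over heterozygous RNA (x axis) against the negative log10 of the unadjusted limma p (y axis) for all 18295 genes (light grey), the 908 past an adjusted p of 0.05 (dark grey) and the 39 guidance genes (red). Epha7 is the guidance gene among the dark points, and Ephb2, Ephb1, Epha2 and Efnb1 lie just below them.

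Several genes had more than 1 informative probe. Of 59 further probes, 12 were above background, from 9 genes, and 5 of these had the sign of the brightest probe. For Robo1 the second probe was almost as bright as the first, with a signal of 105 in the null RNA and 121 in the heterozygous RNA. It read -0.16, -0.22 and -0.26 in pools 1 to 3, with a mean of -0.21 ± 0.052. In the fit over all 41174 probes, 1058 probes passed, among them this Robo1 probe (limma adjusted p over probes = 0.0496) and that of Epha7 (adjusted p over probes = 0.0484). The brightest Robo1 probe did not pass there (-0.15 ± 0.19; adjusted p over probes = 0.494), and another, dim probe read 0.047 ± 0.046. The Robo1 probes thus disagreed in pool 3, where they read 0.070 and -0.26.

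A second probe of Epha3, above the background limit on 6 arrays for the null RNA and on 5 for the heterozygous RNA, averaged -0.013 ± 0.030, against 0.22 ± 0.10 for the brightest. A second Epha4 probe averaged -0.083 ± 0.10, and a second Neo1 probe -0.22 ± 0.14. The means of the Neo1 and Epha4 probes pointed the same way, and those of the Epha3 probes did not. In pool 2 the Epha4 probes disagreed, at -0.56 for the brightest and 0.038 for the second. The second Neo1 probe was dim, past the background limit on 1 array for the null RNA and on 4 for the heterozygous RNA. The sources used here do not say which transcripts each probe reads.

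**Figure D4:**
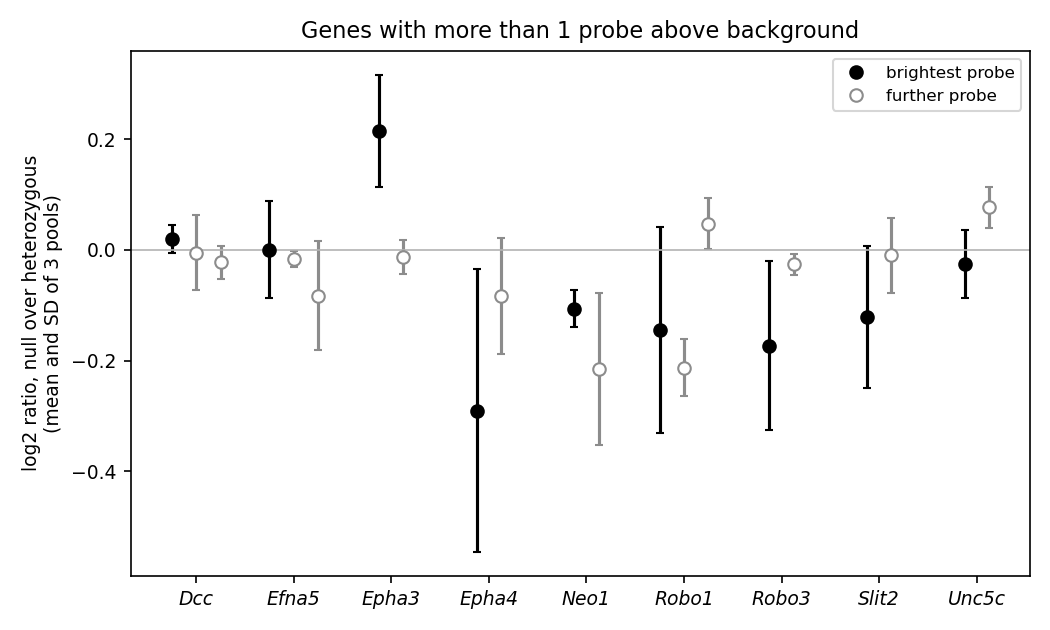
Log2 ratio of null over heterozygous RNA (y axis; mean and SD of 3 pools) for each probe above background of the 9 guidance genes with more than 1 such probe (x axis), with the brightest probe filled and further probes open. The first and second Robo1 probes lie at -0.15 and -0.21 and a further one at 0.047, and the Epha3 probes at 0.22 and -0.013.

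Since the probes were dim, the sizes depended on how background was removed. The ratios above used an offset that pulls dim ratios towards 0. With the local background subtracted instead, Epha7 read -0.75 (1.68-fold lower in the null pool), Epha2 -0.76, Ephb1 -0.58, Epha3 0.50, Ephb2 0.45 and Efnb1 0.40. Each kept its sign, and in that setting limma called 0 of all genes. At an unadjusted p under 0.05 there were 3443 genes, or 18.8% of all genes. Among the guidance genes, which were more often above background than all genes, there were 12 of 39.

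**Figure D5:**
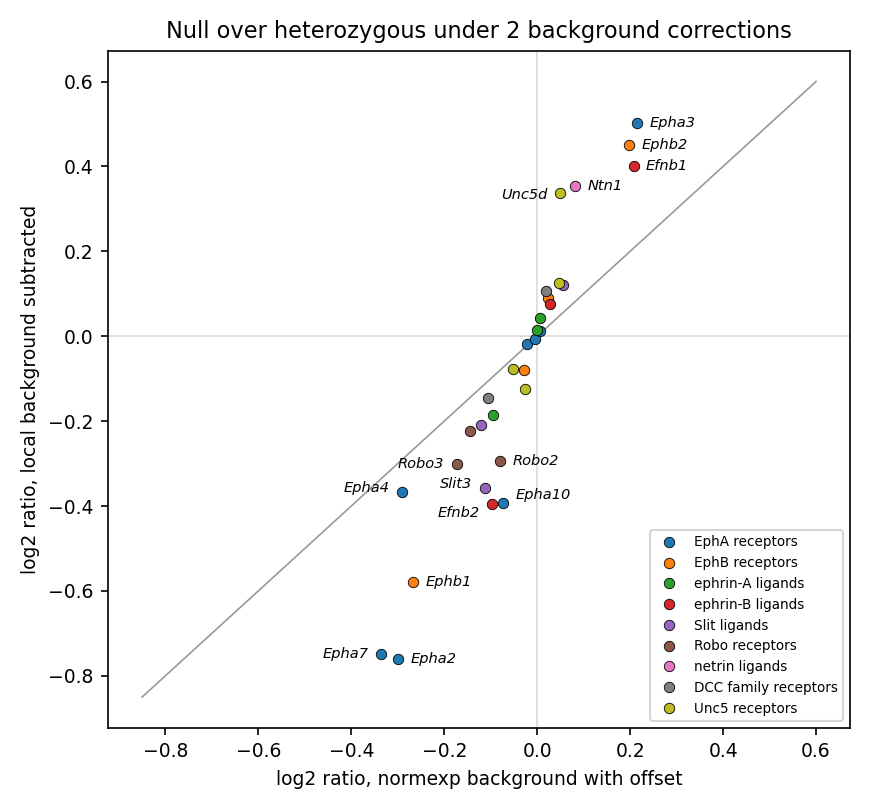
Log2 ratio of null over heterozygous RNA with the normexp background correction and offset (x axis) and with the local background subtracted (y axis) for the 31 guidance genes above background, with the line of equal values. Epha7 and Epha2 lie at -0.75 and -0.76 after subtraction and at -0.34 and -0.30 with the offset.

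Partner and downstream genes of the 3 systems gave 4 rises and 2 falls among 64 measured genes in limma, with 58 not passing. That is 9.38% of the list, against 4.96% of all genes, 3.09% as higher and 1.87% as lower. The list was also more often above background than all genes, at 84.4% and 67.2%, and its members were chosen with earlier results known. Cfl1, which encodes the actin-severing protein cofilin, rose by 0.30 ± 0.037 (adjusted p = 0.0290). Ptk2, encoding the focal adhesion kinase that binds DCC, rose by 0.21 ± 0.045. Cdc42, a small GTPase of growth cone turning, rose by 0.21 ± 0.051, and Dscaml1, a relative of the netrin receptor DSCAM, by 0.20 ± 0.042. The falls were in Usp33, a deubiquitinase that binds Robo1, at -0.41 ± 0.11 (adjusted p = 0.0394), and in the Abl family kinase gene Abl2, at -0.43 ± 0.12 (adjusted p = 0.0415). These SDs are over pool means and leave out the gap between swapped arrays. That gap averaged 0.26 for Cfl1 (0.023 and 0.54 in pool 1) and 0.27 for Abl2 (-0.68 and -0.12 in pool 2). For the other calls it lay between 0.019 and 0.14, and all of these genes kept their sign on all 6 arrays.

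The largest ratio in that list did not pass. Dscam, encoding a further netrin receptor, read -0.51, -1.05 and -0.48 in pools 1 to 3, with a mean of -0.68 ± 0.32 (limma adjusted p = 0.0817). Trim67 (-0.49 ± 0.26), Lrrc4c (-0.43 ± 0.27) and the Unc5 ligand gene Flrt2 (0.22 ± 0.063; adjusted p = 0.0517) did not pass either. The list's median was -0.015, against -0.0027 over all genes.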

How the data were processed

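The authors deposited, per the file headers, scanner intensity values of each spot and its local background for both dyes, without normalization, and normalized intensity values for each dye. The log2 values the authors deposited in the series table matched normalized Cy5 over Cy3 in size and sign on each array, so swapped arrays were left unturned. The sources used here do not name their normalization. RNA was amplified in 2 rounds, per the labels' protocols.

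From the scanner intensities, background was corrected with normexp (offset 50), each array was normalized by loess with the 4046 control spots at weight 0, and ratios were turned to null over heterozygous. Paired arrays were averaged. A gene was represented by its brightest probe. limma 3.58.1 (lmFit, then eBayes; R 4.3.3) tested each mean ratio against 0 over 18295 genes, with Benjamini-Hochberg adjustment and a threshold of 0.05. The fit was tested on simulated data. The small number of arrays limits precision. The guidance genes, partner list and markers were chosen with earlier results of these data known. Of the 67 partner genes listed, 3 were not analysed here. Values of every pool are given for guidance genes above background with an unadjusted p under 0.05 or among the 10 largest ratios, 15 in all. Pool values of Efna2, Efna5 and Epha5 were added after their values were seen. Alternatives covered background, normalization, the authors' values, probe choice, dye orientation, variance model and pools.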

Additional observations from a re-analysis of the deposited data

How the results depend on the processing

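All 15 guidance genes with full values kept their sign in all 14 alternatives. Scaling between arrays, the dim-probe filter, the trended robust variance and the 6-array model returned the main log2 ratios and could change no sign. Nor could the mean over probes for a gene with 1 probe, or leaving out a pool where all 3 pools agreed. The count of rises, 0 in the main setting, was 1 with the mean over probes, 1 with the null RNA in Cy5 only and 3 in the 6-array model with a dye term and replicate block, and 0 in the others. The count of falls, 1 in the main setting, was 2 with the dim-probe filter, 2 with the null RNA in Cy5 only and 4 with the replicate block. It was 0 with local background subtraction, median centring and the trended robust variance, and 0 to 0 when leaving out each pool, settings in which limma called 0 of all genes (2604 to 3443 at an unadjusted p under 0.05). With the dim-probe filter 2 of 31 guidance genes passed in either direction, against 8.69% of all genes tested there. With the null RNA in Cy5 only 3 of 39 passed, against 5.62% of all genes. The mean over probes gave 2 of 39 against 4.67%, and the null RNA in Cy3 only gave 1 of 39 against 3.68%. The 1 fall was Ephb1 with the mean over probes and Epha2 with the null RNA in Cy3 only. The cause was not tested. Under the replicate block, which counts the 6 arrays of 3 pools, 12.1% of all genes passed and 7 guidance genes did: Epha7, Ephb1, Epha2, Neo1, Ephb2, Efnb1 and Epha3. Epha7 passed in 6 of 14 alternatives (limma adjusted p from 0.00496 to 0.169), among them the scaling between arrays, where its values equal the main ones. It read -0.095 with the mean over its probes, 3 of which were not above background. Epha3 read 0.028 there. The median of -0.0092 moved by more than the SD of the pool medians (0.0064) to -0.017 without background correction, -0.017 with the authors' deposited values, -0.017 with the null RNA in Cy5 only and -0.0027 without pool 1, and lay between -0.014 and -0.0027 without single pools. It was -0.026 with the dim-probe filter, which leaves the 31 genes above background, so the gene sets differ. Low signal over background limits the sizes of all these ratios, and the single null pool limits what the p-values cover.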
